A study of Homo sapiens with 4 samples.

Results

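The protein kinase C (PKC) genes were examined in K562 cells, an established erythroleukemic line from human chronic myeloid leukemia, in which the RUNX1::ERG fusion was expressed. The 9 genes were PRKCA, PRKCB, PRKCD, PRKCE, PRKCH, PRKCI, PRKCQ, PRKCZ and PKN2. They were taken by name, through the NCBI gene number given for each row, from 25702 genes in the deposited count files. All 9 were found, and all 9 passed the filter on low counts that left 15394 genes for testing. The cells were transfected with a LeGO-iG2 plasmid, either empty or carrying RUNX1::ERG, and both forms co-express green fluorescent protein. The genotype labels read control and RUNX1::ERG, and no further treatment is recorded for either group. Each group had 2 libraries of poly(A)-enriched RNA from this line, described as biological replicates. The edgeR p-values below rest on the spread between these samples, with that of each gene drawn towards that of all genes. The fusion retains the Runt and Ets DNA-binding domains, came from a plasmid in a line that carries its own RUNX1 gene, and was delivered transiently, so untransfected cells contribute to the RNA unless they were removed, which the sources used here do not state.

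PKC enzymes phosphorylate serine and threonine residues, and most are switched on by diacylglycerol, a lipid that phospholipase C releases from the plasma membrane. The classical enzymes also need calcium. A second class responds to diacylglycerol without calcium. The atypical enzymes respond to neither and act in cell polarity, while the PKN kinases are relatives with a similar catalytic domain. Phorbol esters imitate diacylglycerol, and they are the standard means of driving K562 cells towards megakaryocytic features. PRKCQ, which encodes PKC theta, is a known target of RUNX1 in platelets, where PKC signalling promotes granule secretion and aggregation.

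Library totals ran from 59695387 to 82352144 counts. Values below are normalized CPM, in which counts were scaled to a common library total with TMM factors. ERG had 4 counts in each empty vector library, against 80443 and 27218 in RUNX1::ERG replicates 1 and 2, so the groups carried their labels and the second replicate had less of the fusion's RNA. These reads do not separate the plasmid from the cells' own genes. Erythroid genes were abundant in all 4 libraries, with HBE1, an embryonic globin, at 398543 counts or more. PRKCB and PRKCQ are also genes of B and T lymphocytes. Of 5 B cell markers, 4 were under 1 CPM in all libraries and the summed level ran from 1.20 to 2.16 CPM, and MS4A1 was at 0. Of 6 T cell markers, 4 were under 1 CPM. Their summed level was 34.8 and 37.2 CPM with the empty vector and 25.4 and 28.0 CPM with RUNX1::ERG, most of it CD3D, at 32.5 and 34.7 against 20.5 and 23.5 CPM. CD3G differed the other way, at 1.73 and 2.06 CPM with the empty vector and 4.22 and 3.99 CPM with RUNX1::ERG (edgeR adjusted p = 0.064), and CD2 had at most 4 counts in a library. Platelet markers summed to 57.9 and 71.1 CPM with the empty vector and 161 and 171 CPM with RUNX1::ERG. Most of this was TUBB1, at 57.8 and 71.0 CPM with the empty vector and 132 and 143 CPM with RUNX1::ERG. The 3 of 6 with enough counts to be tested were called higher, as were 3.64% of all genes tested. PF4 and PPBP had at most 6 counts in an empty vector library and passed the filter only through RUNX1::ERG. GP1BB was at 0, and GP9 and TREML1 had at most 2 counts. Monocyte markers summed to 1.86 and 0.893 CPM with the empty vector and 5.43 and 2.56 CPM with RUNX1::ERG. Of 6, 4 were tested and 1 was called. This was CD14, with 11 and 30 counts against 325 and 143 (log2 fold change 3.24, edgeR adjusted p = 0.0058). FCGR3A, not tested, went the other way, with 42 and 10 counts against 8 and 3. The part of these markers in the results below was not tested.

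K562 cells expressed 6 of the 9 genes at more than 20 CPM, and the set was led by PRKCB. To compare genes, levels were divided by the length of the canonical GENCODE transcript. PRKCB, a classical PKC that serves B cell receptor signalling, stood at 63.9 ± 0.61 (SD, n = 2) CPM per kb with the empty vector. PRKCI, the atypical PKC iota, followed at 15.4 ± 0.31 (SD, n = 2) CPM per kb, 4.15 times lower. PRKCQ was at 9.67 ± 0.016 (SD, n = 2) and PKN2, one of the PKN kinases, at 8.98 ± 0.98 (SD, n = 2) CPM per kb. The ranges of PRKCQ and PKN2 overlapped, so their order is not resolved. PRKCD, the calcium-independent PKC delta, and PRKCA, a classical PKC, were next, at 7.56 ± 0.036 (SD, n = 2) and 6.47 ± 0.011 (SD, n = 2) CPM per kb, with separate ranges. PRKCH, the calcium-independent PKC eta, was 5.40 times lower than PRKCA, at 1.20 ± 0.050 (SD, n = 2) CPM per kb. PRKCZ and PRKCE, which encode PKC zeta and epsilon, were close to silent. PRKCZ stood at 0.063 ± 0.020 and PRKCE at 0.044 ± 0.024 (SD, n = 2) CPM per kb, and their ranges overlapped. Thus the atypical class in these cells was almost all PRKCI, with 4462 to 5377 counts per library against 7 to 17 for PRKCZ.

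**Figure D1:**
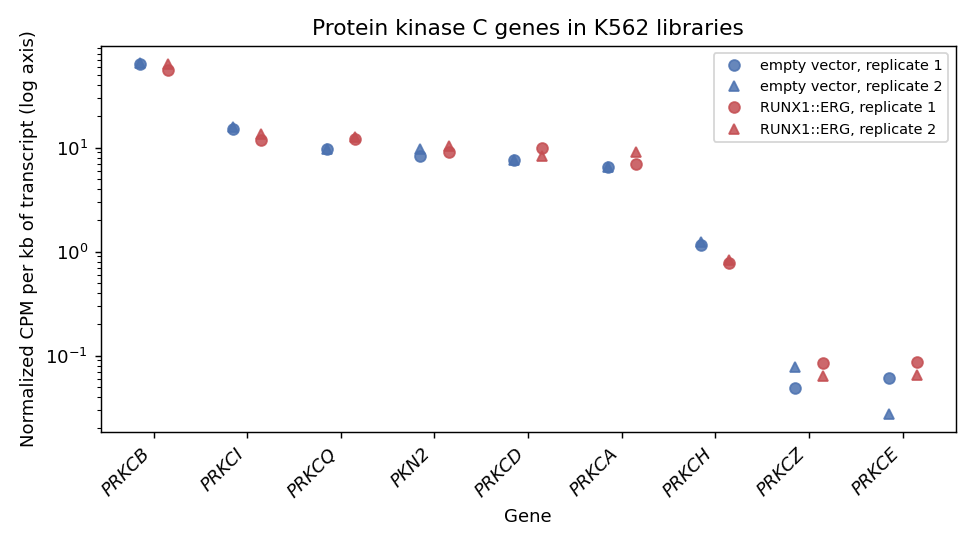
Normalized CPM per kb of canonical transcript (log axis) for the 9 genes in each of the 4 libraries, ordered by the empty vector mean. PRKCB is highest in every library, and PRKCZ and PRKCE lie below 0.1 CPM per kb in every library.

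With RUNX1::ERG the order changed in part. PRKCB was still first, at 59.5 ± 4.87 (SD, n = 2) CPM per kb, 4.70 times the level of PRKCI. PRKCI and PRKCQ, which had differed by 1.59 times with the empty vector, were at 12.7 ± 1.30 and 12.3 ± 0.43 (SD, n = 2) CPM per kb with overlapping ranges. PRKCQ and PKN2, whose ranges had overlapped with the empty vector, were 1.27 times apart with separate ranges. PKN2, PRKCD and PRKCA followed at 9.65 ± 0.92, 9.11 ± 1.05 and 7.95 ± 1.42 (SD, n = 2) CPM per kb, and the ranges overlapped between PKN2 and PRKCD and between PRKCD and PRKCA. PRKCH stayed well below them at 0.802 ± 0.039 (SD, n = 2) CPM per kb.

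The total for the family differed little between groups. Summed over the 9 genes, the level was 749 and 766 CPM with the empty vector and 694 and 782 CPM with RUNX1::ERG, so the groups overlapped. As a share of the summed CPM per kb, PRKCB made up 56.7% and 56.1% with the empty vector and 52.6% and 53.5% with RUNX1::ERG. The calcium-independent class (PRKCD, PRKCE, PRKCH and PRKCQ) made up 16.5% and 16.1% against 21.3% and 18.6%. The atypical class made up 13.6% and 13.7% against 11.1% and 11.6%. These shares do not overlap between groups for PRKCB and for both classes, but they are given as descriptions, since 0.333 is the smallest p that exact permutation of 2 against 2 libraries allows.

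**Figure D2:**
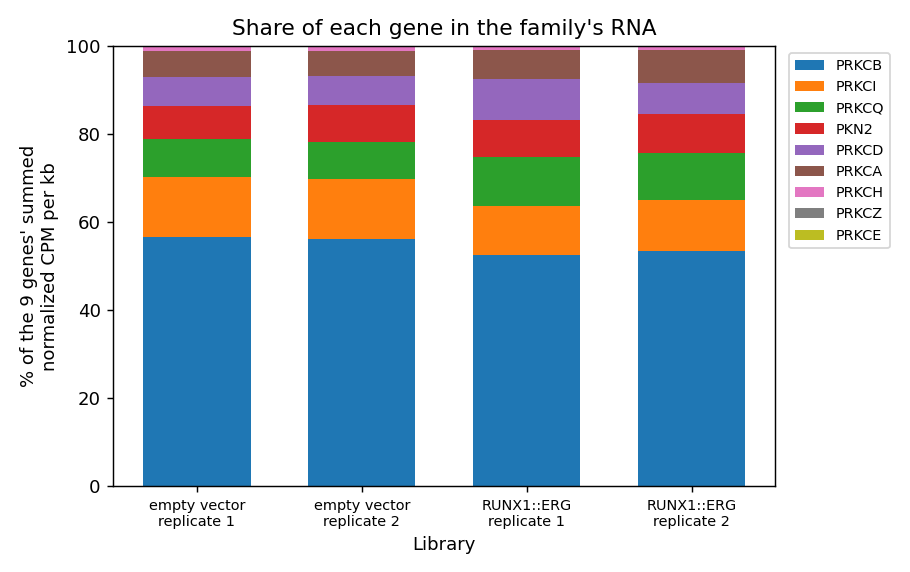
Share of each of the 9 genes in their summed normalized CPM per kb (%), one bar per library. PRKCB takes 52.6% to 56.7% of every bar, and the PRKCQ segment is 8.43% to 8.65% with the empty vector and 10.7% to 11.2% with RUNX1::ERG.

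Whether RUNX1::ERG changed the expression of each gene was tested with edgeR (quasi-likelihood), with p adjusted by Benjamini-Hochberg over all 15394 genes and called under 0.05. SE is the standard error of the log2 fold change. None of the 9 genes passed, higher or lower, and none had an unadjusted p under 0.05, as 18.0% of all genes had. Of all genes tested, 4.79% were called (3.64% higher and 1.15% lower), and of those with a mean of at least 1 CPM, 4.92%, so a count of 0 in 9 is near the background and says nothing particular about this family. DESeq2's Wald test and limma voom called none of the 9 either. DESeq2 gave PRKCH an unadjusted p under 0.05, rounding to 0.050, and limma voom gave none. The normalized levels of the groups did not overlap for 7 of the 9 genes. PRKCA, PRKCD, PRKCE and PRKCQ were higher in both RUNX1::ERG libraries, against 25.1% of all tested genes, and PRKCB, PRKCH and PRKCI were lower in both, against 22.1%. The median log2 fold change was 0.23 over the 9 genes and 0 over all genes tested. In bulk RNA, a change in the number of cells that express a gene and a change in its level per cell cannot be told apart.

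The size of difference that could be called sets the limit of this comparison. Of 9137 genes with a mean of at least 10 CPM, 363 were called, and the smallest absolute log2 fold change among them was 0.59. The 6 members above that level had absolute log2 fold changes of at most 0.34, so no gene at that level with a difference of their size was called. Their 95% intervals nevertheless bound the change. For PRKCB the interval ran from 0.750 to 1.16 times the empty vector level, and for PKN2 from 0.828 to 1.39 times.

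**Figure D3:**
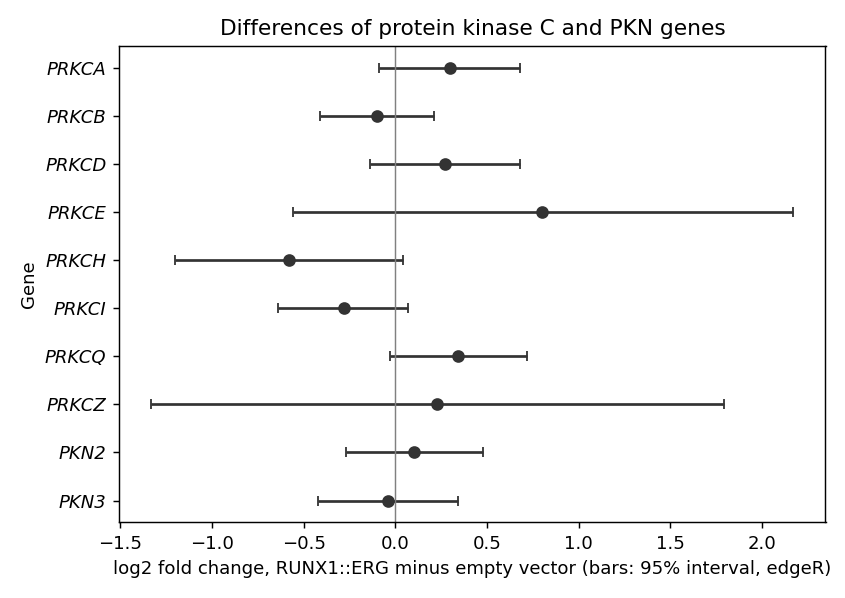
log2 fold change (RUNX1::ERG minus empty vector) of the 9 genes and of PKN3, with 95% intervals from edgeR. All the intervals include 0, and those of PRKCE and PRKCZ are the widest because they rest on at most 42 counts in a library.

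PRKCQ was examined in most detail because it is a RUNX1 target in platelets. PRKCQ (NCBI gene 5588, chromosome 10 of GRCh37, 6469105 to 6622263, minus strand) was at 31.5 and 31.4 CPM in empty vector replicates 1 and 2 and at 38.9 and 40.9 CPM in RUNX1::ERG replicates 1 and 2. Both RUNX1::ERG libraries lay above both empty vector libraries, and the replicates of each group lay close together. The level was 1.27 times that of the empty vector (95% interval 0.979 to 1.64), a log2 fold change of 0.34 (SE 0.17, edgeR adjusted p = 0.33). The standard error is large beside the gap between replicates because the fit draws the spread of each gene towards that of all genes. When each library was left out in turn the log2 fold change stayed between 0.29 and 0.38. Whether PRKCQ follows the amount of the fusion's RNA was not tested, since only 2 libraries carry the fusion. The log2 ratio of replicate 1 to replicate 2 was 1.33 for ERG and -0.07 for PRKCQ.

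Beside PRKCQ, and transcribed away from it, lies the noncoding gene PRKCQ-AS1 (NCBI gene 439949, chromosome 10, 6622381 to 6658883, plus strand). Its annotated start is 118 bases from that of PRKCQ in GENCODE. PRKCQ-AS1 was at 32.6 and 32.1 CPM with the empty vector and at 28.3 and 30.2 CPM with RUNX1::ERG, so here the RUNX1::ERG libraries were the lower ones. Its log2 fold change was -0.15 (SE 0.17, edgeR adjusted p = 0.74). The ratio of PRKCQ to PRKCQ-AS1 counts within a library needs no scaling between libraries. It was 0.965 and 0.979 with the empty vector and 1.38 and 1.36 with RUNX1::ERG, a ratio 1.41 times higher. The groups did not overlap, and the smallest p an exact permutation test allows is 0.333. The strand setting of the counting is not given in the sources used here, so reads from any region that both transcripts cover could be assigned to either gene or to none.

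**Figure D4:**
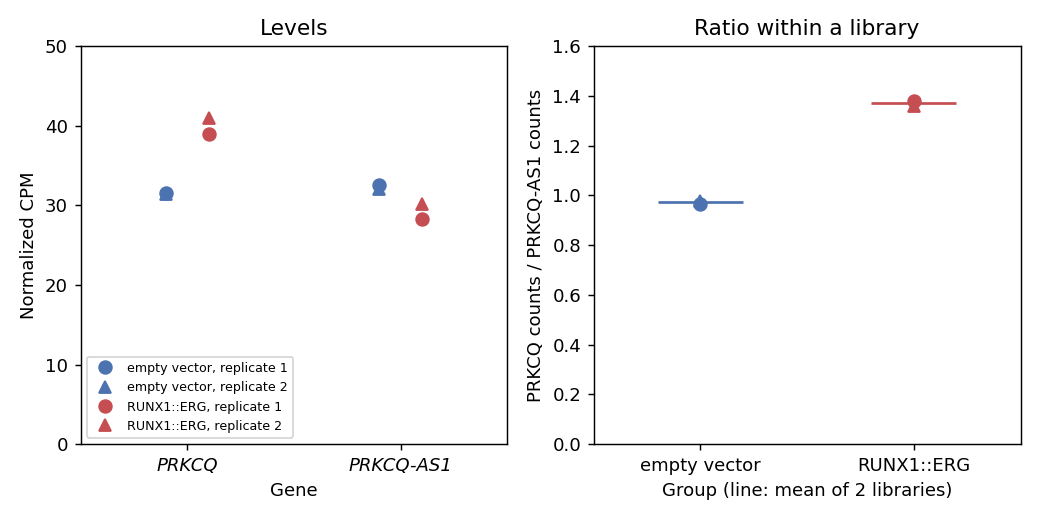
Left, normalized CPM of PRKCQ and of its divergent neighbour PRKCQ-AS1 in the 4 libraries. Right, the ratio of their counts within each library, with the group mean as a line, at 0.965 and 0.979 with the empty vector and at 1.36 and 1.38 with RUNX1::ERG.

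To show what lies upstream of these genes, the 250 bases before the annotated start were taken from RefSeq on GRCh38.p14, a build other than that of the counts. All 9 genes had at least 1 such window, and there were 14 windows in all because PRKCD and PRKCZ have several starts. Each was searched on both strands for letters recognised by Runt proteins (TGTGGT or TGCGGT), by Ets proteins (CGGAAG or AGGAAG), by GATA factors (AGATAA or TGATAA) and by AP-1 (TGACTCA), the last being the phorbol ester response element. Over 35116 windows of all genes, 16.3% held the Runt letters, 40.8% the Ets letters, 14.6% the GATA letters and 4.2% the AP-1 letters. Of the 14 windows, 4 held the Runt letters (28.6%, in PRKCA, PRKCB, PRKCD and PRKCH), 6 the Ets letters (42.9%, in PRKCA, PRKCD, PRKCH, PRKCZ and PKN2), and none those of GATA or AP-1. The 4 windows below are from the known RUNX1 target (PRKCQ), the gene with the lowest p (PRKCH), a classical PKC with both kinds of match (PRKCA), and the most abundant gene (PRKCB). They run 5′ to 3′ along the gene, and capitals mark every match. PRKCQ is on the minus strand at chr10:6580647-6580896, and the others are on the plus strand at chr14:61321329-61321578 (PRKCH), chr17:66302363-66302612 (PRKCA) and chr16:23835733-23835982 (PRKCB).
PRKCQ: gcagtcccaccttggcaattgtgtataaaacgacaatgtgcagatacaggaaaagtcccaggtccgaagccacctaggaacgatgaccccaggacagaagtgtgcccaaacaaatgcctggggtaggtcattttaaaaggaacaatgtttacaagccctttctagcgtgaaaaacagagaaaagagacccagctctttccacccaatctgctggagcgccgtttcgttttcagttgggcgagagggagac
PRKCH: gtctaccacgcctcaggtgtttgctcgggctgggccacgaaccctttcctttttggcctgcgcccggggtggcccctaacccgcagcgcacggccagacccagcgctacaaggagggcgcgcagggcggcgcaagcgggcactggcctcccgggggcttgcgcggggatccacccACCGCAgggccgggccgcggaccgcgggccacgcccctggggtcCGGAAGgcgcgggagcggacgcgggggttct
PRKCA: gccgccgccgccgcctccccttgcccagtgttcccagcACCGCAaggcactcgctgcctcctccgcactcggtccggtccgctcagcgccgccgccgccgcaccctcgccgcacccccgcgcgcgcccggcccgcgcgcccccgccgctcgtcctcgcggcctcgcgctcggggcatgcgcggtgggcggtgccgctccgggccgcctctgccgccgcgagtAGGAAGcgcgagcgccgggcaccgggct
PRKCB: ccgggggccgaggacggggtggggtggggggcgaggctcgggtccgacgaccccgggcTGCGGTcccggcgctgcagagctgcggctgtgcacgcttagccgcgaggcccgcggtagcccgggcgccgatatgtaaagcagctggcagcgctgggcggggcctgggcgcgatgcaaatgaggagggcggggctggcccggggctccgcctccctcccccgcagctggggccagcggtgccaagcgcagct

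The PRKCQ window, before a RefSeq start that was not matched to the GENCODE start used above, held none of the letters searched. Its GC content was 49.2%, against 58.0% as the median of all windows and 68.4% as the median of the 14 windows of these genes. The PRKCH window held the Runt letters, read on the opposite strand in this window and that of PRKCA, 75 bases before the start and the Ets letters at 31 bases. The PRKCA window held them at 212 and 28 bases, and the PRKCB window held the Runt letters alone, at 192 bases. A match describes the letters in this window and no more.

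Of the other calcium-independent genes, PRKCH (NCBI gene 5583, chromosome 14 of GRCh37, 61654277 to 62017694) had the lowest p of the 9. It was at 4.33 and 4.59 CPM with the empty vector and at 2.88 and 3.09 CPM with RUNX1::ERG. Both RUNX1::ERG libraries were lower, and the level was 0.669 times that of the empty vector (95% interval 0.436 to 1.03). The log2 fold change was -0.58 (SE 0.28, edgeR adjusted p = 0.31). Relative to PRKCH, PRKCQ counts were 7.27 and 6.84 times as high with the empty vector and 13.5 and 13.3 times as high with RUNX1::ERG. In GENCODE, PRKCH shares 356 exon bases with TMEM30B on the opposite strand, but that gene had 0 counts in all 4 libraries. PRKCD (NCBI gene 5580, chromosome 3, 53190025 to 53226733) was at 21.5 and 21.4 CPM with the empty vector and at 27.9 and 23.7 CPM with RUNX1::ERG. The RUNX1::ERG libraries were higher but differed from each other by more than the lower one differed from the controls. Its log2 fold change was 0.27 (SE 0.19, edgeR adjusted p = 0.51). PRKCE (NCBI gene 5581, chromosome 2, 45878484 to 46415129) had 21 and 11 counts with the empty vector and 42 and 27 with RUNX1::ERG. Its log2 fold change of 0.80 had a 95% interval from -0.56 to 2.17, and it was 0.33 without empty vector replicate 2 and 1.47 without empty vector replicate 1. At this depth neither a fall nor a large rise of PRKCE can be set aside.

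The classical genes, which need calcium, included the most abundant of the 9. PRKCB (NCBI gene 5579, chromosome 16, 23847304 to 24231932) was at 508 and 515 CPM with the empty vector and at 449 and 504 CPM with RUNX1::ERG. Replicate 2 of RUNX1::ERG lay just under the controls and replicate 1 further below, with a log2 fold change of -0.10 (SE 0.14, edgeR adjusted p = 0.78). PRKCA (NCBI gene 5578, chromosome 17, 64298731 to 64806861) was at 58.1 and 58.0 CPM with the empty vector and at 62.3 and 80.3 CPM with RUNX1::ERG. The difference rested on the second replicate. The log2 fold change was 0.30 (SE 0.17, edgeR adjusted p = 0.43), and it was 0.09 without RUNX1::ERG replicate 2 and 0.47 without replicate 1. PRKCA counts were 0.114 and 0.112 of those of PRKCB with the empty vector and 0.139 and 0.159 with RUNX1::ERG.

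The atypical gene PRKCI (NCBI gene 5584, chromosome 3, 169940212 to 170023765) was at 74.1 and 76.2 CPM with the empty vector and at 57.4 and 66.4 CPM with RUNX1::ERG. Both RUNX1::ERG libraries were lower, with a level 0.823 times that of the empty vector (95% interval 0.644 to 1.05) and an edgeR adjusted p of 0.41. A pseudogene of PRKCI is annotated on chromosome X, and reads from it could be counted for PRKCI. PRKCZ (NCBI gene 5590, chromosome 1, 1981850 to 2116834) had 7 and 13 counts with the empty vector and 17 and 11 with RUNX1::ERG. The groups overlapped, and its interval, from 0.397 to 3.47 times the empty vector level, leaves its direction unknown. It was 0.23 on the log2 scale with all libraries and -0.05 without empty vector replicate 1. PRKCZ shares exon bases on the opposite strand with FAAP20 (590 bases), which had 1757 to 3040 counts, and with PRKCZ-AS1 (83 bases), which had 97 to 273 counts, so even its few reads are uncertain if counting ignored strand. The log2 fold change of PRKCZ-AS1 was 0.44 (edgeR adjusted p = 0.67), and -0.27 without RUNX1::ERG replicate 1.

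PKN2 (NCBI gene 5586, chromosome 1, 89149905 to 89301938) was at 50.3 and 58.7 CPM with the empty vector and at 54.6 and 62.5 CPM with RUNX1::ERG. The groups overlapped, with a log2 fold change of 0.10 (SE 0.17, edgeR adjusted p = 0.83). Leaving out replicate 1 of the empty vector, or replicate 2 of RUNX1::ERG, brought it to -0.01. PKN3, a related kinase outside the 9, was more abundant per length, at 26.4 CPM per kb with the empty vector. Its log2 fold change was -0.04 (edgeR adjusted p = 0.95), and with a library left out it ran from -0.21 to 0.10.

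Many genes shared the pattern of PRKCQ over the 4 libraries. As a measure of likeness, the root mean square difference was taken between 4 values of log2 CPM, each gene centred on its own mean. Of 15384 other genes tested, 741 lay within 0.1 of PRKCQ. The nearest with a symbol were ISCA1, which serves iron-sulfur cluster assembly, at 0.0101, PRCP, a lysosomal carboxypeptidase, at 0.0163, PSME1, a proteasome activator subunit, at 0.0178, and BLZF1, a Golgi protein, at 0.0216. A gene without a symbol in the table used was at 0.0145. None of these 5 passed the threshold. The pattern of PRKCH was rarer, with 241 genes within 0.1. The nearest were MRPL16, a mitochondrial ribosomal protein, at 0.0199, CPLX1, a complexin, at 0.0262, THG1L, a transfer RNA enzyme, at 0.0280, HDDC2 at 0.0294 and GLUD1, glutamate dehydrogenase, at 0.0309. Of these, HDDC2 came closest to the threshold, at an edgeR adjusted p of 0.055.

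Around the kinases, some genes of diacylglycerol turnover, its other effectors and PKC anchoring did pass the test. Over 5 lists of 62 genes, 53 passed the filter on low counts, of which 6 were called higher and 1 lower. Over all genes tested, 3.64% were called higher and 1.15% lower. The counts of each list below stand beside the same shares and are given as descriptions. The 53 include genes that passed because they were high in one group, among them DGKG, which is one of the 6 called higher. The 9 others had at most 18 counts in a library.

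Phospholipase C genes, whose enzymes release diacylglycerol, had 3 calls among 11 tested of 12. PLCB2 is a form that G-protein-coupled receptors engage in blood cells. It rose from 5.15 and 4.38 CPM with the empty vector to 24.2 and 14.2 CPM with RUNX1::ERG. Both RUNX1::ERG values lay far above the controls, with a log2 fold change of 2.01 (SE 0.28, edgeR adjusted p = 0.0025). PLCH1 rose from 0.481 and 0.227 CPM to 2.11 and 1.75 CPM, a log2 fold change of 2.45 (SE 0.48, edgeR adjusted p = 0.016). PLCD1, the most abundant phospholipase C gene per length with the empty vector, fell from 279 and 226 CPM to 150 and 135 CPM, with a log2 fold change of -0.82 (SE 0.16, edgeR adjusted p = 0.018). Without RUNX1::ERG replicate 1 the calls of PLCH1 (2.31, adjusted p = 0.098) and PLCD1 (-0.90, adjusted p = 0.055) were lost, leaving 1 call in the list. Over all alternatives the adjusted p ran from 3.6e-06 to 0.098 for PLCH1 and from 0.0001 to 0.055 for PLCD1. The list had 5 calls when replicate 2 of either group was left out. The summed level of the 12 genes was 516 and 474 CPM with the empty vector and 470 and 412 CPM with RUNX1::ERG. PLCB3, chosen after its values were seen, missed the threshold at a log2 fold change of 0.65 (edgeR adjusted p = 0.055) and passed it in 6 of 12 alternatives, whose adjusted p ran from 0.0093 to 0.33. PLCB4, also chosen after its values were seen, had 31 and 6 counts with the empty vector and 131 and 127 with RUNX1::ERG. Its log2 fold change of 2.49 (SE 0.65, edgeR adjusted p = 0.058) passed the threshold in 9 of 11 alternatives, whose adjusted p ran from 9.4e-08 to 0.12. The median log2 fold change of the list was 0.15.

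Among diacylglycerol kinases, which convert diacylglycerol to phosphatidic acid, 7 of 9 genes were tested and 1 was called. DGKG had 4 and 6 counts with the empty vector and 56 and 38 counts with RUNX1::ERG. It passed the filter on low counts only through the RUNX1::ERG libraries. It was called at a log2 fold change of 2.94 (SE 0.65, edgeR adjusted p = 0.029). This call was lost without RUNX1::ERG replicate 1 (adjusted p = 0.24) and without replicate 2 (adjusted p = 0.058), with a range of 0.0016 to 0.24 over all alternatives that tested it, and DGKG was not tested when 10 counts were required in every library. Without empty vector replicate 1 the list had 2 calls. The abundant DGKZ, DGKQ and DGKD were not called, and the median of the list was 0.13.

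Of other proteins that bind diacylglycerol through the same C1 domain, 7 of 9 genes were tested and 1 was called. RASGRP3, an activator of Ras family proteins, rose from 2.08 and 1.39 CPM with the empty vector to 6.91 and 6.24 CPM with RUNX1::ERG. The values of the groups were far apart, with a log2 fold change of 1.93 (SE 0.31, edgeR adjusted p = 0.0060), and the call held in all 12 alternatives. Without empty vector replicate 1 the list had 3 calls. None of the protein kinase D genes was called with all libraries, and PRKD1 did not pass the filter. The median of the list was 0.41.

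Anchors, priming kinases and partners of PKC had 2 calls, both higher, among 19 tested of 22. AKAP12, a scaffold that binds PKC and protein kinase A, rose from 5.38 and 6.21 CPM with the empty vector to 78.3 and 78.6 CPM with RUNX1::ERG, a log2 fold change of 3.76 (SE 0.19, edgeR adjusted p = 3.1e-06). The replicates of RUNX1::ERG were alike in AKAP12. CAVIN2, a caveolar protein known as a PKC substrate, rose from 79.6 and 105 CPM to 158 and 180 CPM, a log2 fold change of 0.87 (SE 0.18, edgeR adjusted p = 0.020). The kinases that prime PKC by phosphorylation did not pass the test. PDPK1 had a log2 fold change of 0.04, and MTOR and RICTOR, of the mTORC2 complex, of 0.01 and 0.45. RACK1, a receptor for activated PKC and part of the ribosome, had one of -0.38 (edgeR adjusted p = 0.19). The median of the list was 0.12.

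Among PKC substrates, 9 of 10 genes were tested and none was called by edgeR, with 4 at an unadjusted p under 0.05. DESeq2's Wald test called 2 and limma voom 0, and edgeR called 2 when empty vector replicate 1, empty vector replicate 2 or RUNX1::ERG replicate 1 was left out. MARCKSL1, a membrane protein of the MARCKS family and the substrate gene with the highest mean, was at 318 and 329 CPM with the empty vector and at 361 and 281 CPM with RUNX1::ERG. The groups overlapped, with a log2 fold change of -0.01 (SE 0.16, edgeR adjusted p = 0.99). PLEK, which encodes pleckstrin, the main PKC substrate of platelets, was chosen after its values were seen. It had 18 and 12 counts with the empty vector and 56 and 126 with RUNX1::ERG, and missed the threshold (log2 fold change 2.36, edgeR adjusted p = 0.053) while passing it in 8 of 12 alternatives, whose adjusted p ran from 0.00021 to 0.48. The median of the list was -0.01.

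**Figure D5:**
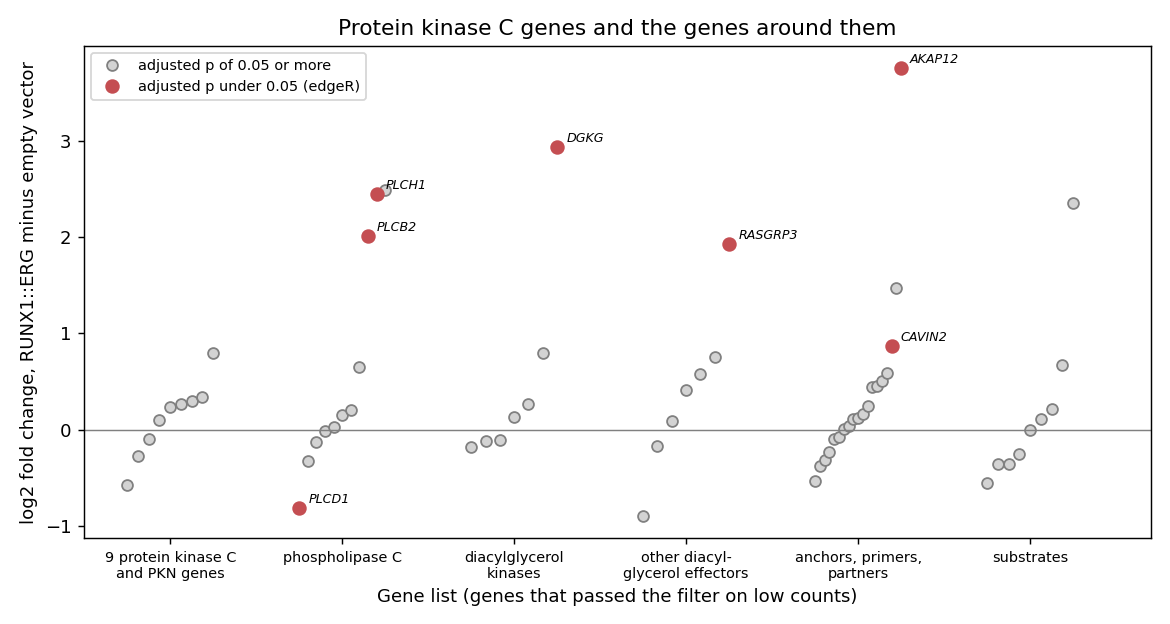
log2 fold change (RUNX1::ERG minus empty vector) of the 9 genes and of the tested genes reported from 5 lists around them, with genes past an edgeR adjusted p of 0.05 in red and named. The 9 family genes lie between -0.58 and 0.80 with none in red, and the 7 called genes lie in 4 of the other lists.

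PRKCQ was also set beside other genes known as RUNX1 targets or lowered in platelets deficient in RUNX1. The list does not sort them by the direction in which RUNX1 acts. Of 13 such genes, PRKCQ included, 11 were tested, 2 were called higher and none lower. Over all genes tested, 3.64% were called higher and 1.15% lower. With so few genes the counts are given as descriptions. PF4, a chemokine of platelet granules, had 0 and 2 counts with the empty vector and 874 and 555 with RUNX1::ERG. It passed the filter on low counts only through the RUNX1::ERG libraries. Relative to library size the ratio of the 1429 to the 2 counts was 598, with an exact 95% interval of 165 to 4940. This interval covers counting error only and takes each count as independent. It is too narrow if both mates of a pair were counted. MYL9, a myosin light chain, rose from 1.66 and 1.84 CPM to 5.09 and 4.70 CPM, a log2 fold change of 1.48 (SE 0.30, edgeR adjusted p = 0.018), and its call was lost without RUNX1::ERG replicate 1 (adjusted p = 0.13, against a range of 0.00024 to 0.13 over all alternatives). PF4 is also one of the platelet markers given above, whose summed level was higher in both RUNX1::ERG libraries. The others that were tested, among them ALOX12, NFE2 and MYH10, were not called. PRKCQ, at 0.34, stood above the median of the list, which was 0.20, and below PF4, MYL9 and PCTP. PCTP, at 0.36, was not called (edgeR adjusted p = 0.26).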

How the data were processed

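Whole transcriptome sequencing of 4 K562 libraries was analysed, 2 per group. For each library the authors deposited a table of counts by NCBI gene number, not normalized. The submitters' processing notes name HISAT2 2.2.1, featureCounts 2.0.1 and hg19. The annotation, strand setting and pair counting are not given in the sources used here. Of the counts from 1 to 10, 66.7% to 68.9% per library were even, so both mates of a pair may be counted. The limit of 3 counts that a count of 0 allows (0.0364 to 0.0503 CPM) covers counting error only. That limit takes each count as independent and is too low if both mates were counted.

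Gene numbers were joined to RefSeq symbols (GRCh38.p14), which matched 92.2%. Positions and transcript lengths came from GENCODE v44 (GRCh37). Differences were tested in R 4.3.3 with edgeR 4.0.16 (TMM, filter on low counts, quasi-likelihood test, Benjamini-Hochberg adjustment, threshold 0.05). The standard error is the log2 fold change divided by the square root of F. The alternatives were 2 other scalings, no filter, at least 10 counts in every library, DESeq2 1.42.0, limma 3.58.1 voom, halved counts, a replicate block and leaving out each library. The procedure was tested on simulated data. Replicates differed by far more than counting noise (chi-square per degree of freedom 88.7 and 67.6).

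The 9 genes and the lists were chosen with earlier results of these data known. Some genes of the family and of the lists are not reported here and are left out of the list counts. Named were the 9 genes, PKN3, listed genes past the threshold or, where none passed, the one with the highest mean, antisense partners with at least 10 counts, and the 5 genes most like PRKCQ and like the member with the lowest p. Other named genes are examples of a list, chosen after their values were seen.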

Additional observations from a re-analysis of the deposited data

How the results depend on the processing

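None of the 9 genes was called under any of the 12 alternatives that tested it. PRKCZ was not tested with halved counts or with 10 counts required in every library. An unadjusted p under 0.05 was seen for PRKCQ with library totals (0.042), PRKCH with DESeq2's Wald test (0.050), both with the replicate block (0.036 and 0.030) and PRKCA without RUNX1::ERG replicate 1 (0.042). With each library left out, which leaves 1 library in a group, assumed to vary like the others, log2 fold changes ran from 0.09 to 0.47 for PRKCA, -0.20 to -0.02 for PRKCB, 0.15 to 0.37 for PRKCD, 0.33 to 1.47 for PRKCE, -0.65 to -0.53 for PRKCH, -0.40 to -0.18 for PRKCI, 0.29 to 0.38 for PRKCQ, -0.05 to 0.61 for PRKCZ and -0.01 to 0.22 for PKN2.

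Over all genes, 737 were called, and 1500 without a filter, 1194 with DESeq2's Wald test, 1733 with the replicate block and 286 to 1336 with a library left out (286 without RUNX1::ERG replicate 1). The share of calls that were higher was 76.0%. It was 83.3% with library totals (103 lower, against 177), 66.7% with DESeq2's Wald test, 64.1% without a filter, 62.4% with the block, and 54.9% to 79.7% with a library left out. The cause was not tested.

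With the replicate block PRKCQ was at 0.34 (adjusted p = 0.16, with 0.16 to 0.74 over all alternatives) and PRKCH at -0.58 (adjusted p = 0.14, with 0.14 to 0.73). Libraries with the same number deviated together over genes (r = 0.27), but with 2 pairs and no stated batch the numbers were taken as names and not as a pairing. The block brought the calls to 5 for phospholipase C, 5 for anchors and partners and 3 for substrates.

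Values near 0 changed sign. GAPDH was at -0.01 without a filter, with the Wald test and with DESeq2's scaling, and ran from -0.10 to 0.11 with a library left out. PKN3 was at 0.00 with library totals. With a library left out PKN3 ran from -0.21 to 0.10 and PRKCZ-AS1 from -0.27 to 0.90.

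The 6 abundant genes had at least 1295 counts in every library. PRKCE and PRKCZ, with at most 42 counts, are limited by depth.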
